A study of Sus scrofa with 15 samples.

Results

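LLC-PK1 cells that received a plasmid for the Tg2 mutant of human PKD2 were compared with LLC-PK1 cells that received the Tg3 mutant. The comparison took the 3 Tg2 and the 3 Tg3 libraries, 6 of the 15 libraries of the series, and the 11553 of 16660 genes whose mean level over all 15 libraries was at least 2 CPM, counts scaled to a common library total. The libraries were chosen by their labels alone. The study set each plasmid against the empty plasmid, and here the mutants were set against each other from the raw counts.

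PKD2 encodes polycystin-2, a cation channel of the transient receptor potential family that lies in the primary cilium and in the endoplasmic reticulum and passes calcium. It forms a complex with polycystin-1 through its C-terminal tail, and inherited mutations in either gene cause autosomal dominant polycystic kidney disease, in which tubule cells proliferate, secrete fluid and line growing cysts. Cyst-lining cells are known for altered calcium and cAMP signalling, for MAPK activity and for high MYC.

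All 15 libraries came from LLC-PK1, an established pig proximal tubule epithelial line, 48 h after transfection with 3 µg of plasmid. The Tg2 plasmid carried L656W (T1967G in the coding sequence), a missense change in a region that belongs to the channel pore, and the Tg3 plasmid carried R742X (C2224T), a stop codon that removes the C-terminal tail. The other groups were an empty plasmid (NC), wild-type PKD2 (WT) and the mutant D511V (Tg1), with 3 libraries each. Every plasmid shared the CAG promoter, a floxed neomycin cassette and the pH11 backbone, so the empty plasmid carried these too. The PKD2 plasmids ended in a FLAG tag, which Tg3 does not express because its stop codon lies before it. Expression was transient, in a line with its own pig PKD2, and neither the transgene nor pig PKD1 and PKD2 were analysed here, so the dose of each mutant cannot be told apart from its sequence. In bulk libraries a higher level per cell and a larger share of transfected cells cannot be told apart. The 3 libraries of a group were wells of the same line, and p-values measure the spread between these wells.

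The total per library was 22184915 to 23485932 counts in Tg2 and 20216200 to 23810062 in Tg3, and TMM factors were 0.951 to 0.994 and 0.981 to 1.004. Epithelial and proximal tubule markers were present in both groups. The 5 epithelial markers summed to 3876 to 3978 CPM in Tg2 and 3760 to 3872 CPM in Tg3, so these sums did not overlap. Their log2 fold changes were 0.12 for KRT7, 0.09 for CDH1, 0.01 for EPCAM and -0.00 for KRT18. KRT8, a keratin of simple epithelia, differed by 0.01 in log2 (standard error 0.03), and the summed level of 10 proximal tubule markers, among them LRP2, CUBN, AQP1 and SLC34A1, was 960 to 1180.5 CPM in Tg2 and 996 to 1117 CPM in Tg3. None of the 10 had an unadjusted p under 0.05. The other nephron segments were represented by SLC12A1, with list sums of 9.9 to 11.7 CPM in Tg2 and 10.9 to 12.2 CPM in Tg3. Endothelial markers summed to 1.3 to 1.7 CPM in Tg2 and 1.3 to 2.1 CPM in Tg3, the leukocyte marker PTPRC had at most 1 count in any library, and the fibroblast list, at 851 to 880.4 CPM in Tg2 and 872 to 903 CPM in Tg3, rested on COL1A2 (log2 fold change -0.04), with LUM, PDGFRA and PDGFRB at 4 counts or fewer in every library.

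No gene differed between Tg2 and Tg3 at the thresholds of the study, an adjusted p of at most 0.05 with a log2 fold change of at least 0.26 in size. edgeR's quasi-likelihood test called 0 of 11553 genes (0%), and the smallest adjusted p-value was 0.822 after Benjamini-Hochberg adjustment. At an unadjusted p under 0.05 there were 673 genes (5.83%), of which 344 (2.98%) were higher and 329 (2.85%) lower in Tg2. DESeq2 also called 0 genes, with 545 at an unadjusted p under 0.05 and a smallest adjusted p of 0.0699. The 6 libraries did not overlap, all 3 of Tg2 lying above or below all 3 of Tg3, in 1330 genes (11.5%), 631 above (5.46%) and 699 below (6.05%). The estimates themselves were split evenly, with 5809 genes higher (50.3%) and 5744 lower (49.7%) in Tg2. Leaving out Tg2 replicate 3 raised the number of genes at an unadjusted p under 0.05 to 1333. Leaving out Tg2 replicate 1 or Tg3 replicate 3 lowered it to 421 and 422. Without Tg2 replicate 2, Tg3 replicate 1 or Tg3 replicate 2 it was 485, 515 and 708. Each of these fits called 0 genes. Counts of list members without a library, given below, are to be read beside these totals out of 11553 genes.

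Most estimated differences were small. The median absolute log2 fold change was 0.06 and the 95th percentile was 0.25, against a median standard error of 0.07, and 537 genes had an estimate of 0.26 or more in size, 2 of them of 1 or more. The farthest, ENSSSCG00000036341, named after its values were seen, had no count in any Tg2 library and stood at 2.36, 9.15 and 0 CPM in Tg3 and 1.37, 9.12 and 1.81 CPM in NC, with an adjusted p of 0.822 from edgeR. Since Tg3 replicate 3 also had none, the groups overlapped, and no fold change is given for it. The 95% confidence interval of the difference lay within 0.26 on either side of 0 for 6802 genes (58.9%), within 0.5 for 10206 (88.3%) and within 1 for 11446 (99.1%). The precision depended on the level of the gene. Among the 981 genes under 5 CPM the median standard error was 0.19 and 33.3% of the intervals lay within 0.5, whereas among the 5591 genes from 20 to under 100 CPM it was 0.06 and 96.4% did. A difference in a gene of low level was therefore not detectable at this depth unless it was large, and the absence of calls does not show that the mutants act alike.

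**Figure D1:**
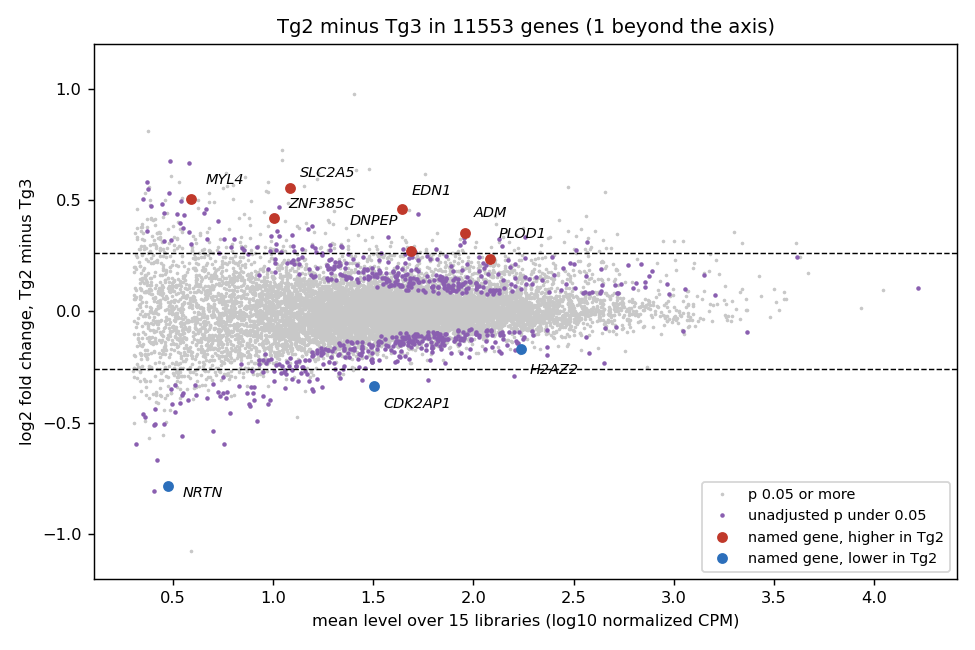
Log2 fold change of Tg2 minus Tg3 (y axis) against the mean level over 15 libraries in log10 normalized CPM (x axis) for the tested genes, with 1 gene beyond the y axis. Dashed lines mark 0.26 on either side of 0, purple points are the 673 genes at an unadjusted p under 0.05, and large red and blue points are named genes higher and lower in Tg2. The spread of the estimates narrows from the genes under 5 CPM to the genes of high level.

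Distances between libraries of different mutants lay in the range of those between libraries of the same mutant, apart from the pair of Tg2 replicate 1 with Tg3 replicate 3 at 0.259. The root mean square difference in log2 normalized CPM, which measures how far 2 libraries lie apart over all tested genes, was 0.164 to 0.259 in the 9 pairs of a Tg2 with a Tg3 library (median 0.204). Within Tg2 it was 0.165 to 0.248 (median 0.215) and within Tg3 0.155 to 0.216 (median 0.183). Tg2 replicate 3 lay closer to Tg3 than to its own group. It differed from Tg3 replicates 3 and 1 by 0.164 and 0.167 and from Tg3 replicate 2 by 0.211, and from Tg2 replicates 1 and 2 by 0.248 and 0.215. Counts of replicates of either mutant gave a chi-square of 2.55 to 16.0 per degree of freedom, above what sampling alone gives, and all 6 libraries were kept as separate samples. The distance to the empty plasmid had a median of 0.272 in Tg2 and 0.208 in Tg3.

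**Figure D2:**
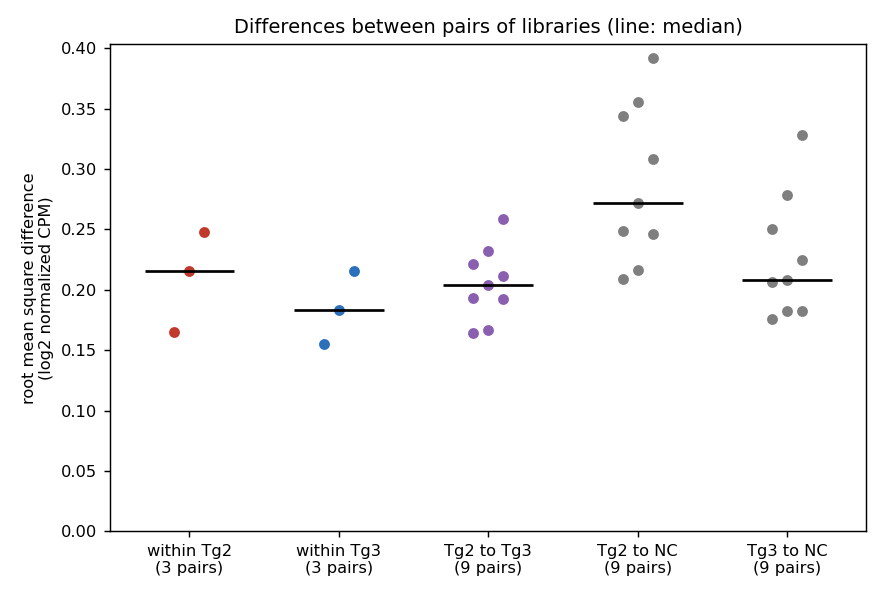
Root mean square difference in log2 normalized CPM (y axis) for each pair of libraries, grouped by the plasmids of the pair (x axis); lines are medians. The 9 pairs of a Tg2 with a Tg3 library (median 0.204) cover the range of the pairs within Tg2 (median 0.215), and Tg2 lies farther from NC (median 0.272) than Tg3 does (median 0.208).

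Set against shared controls, Tg2 and Tg3 gave different numbers of calls. Against NC, edgeR called 974 genes in Tg2 (8.43%) and 0 in Tg3 (0%), and against WT it called 684 in Tg2 (5.92%) and 0 in Tg3 (0%). Tg3 had 2089 genes at an unadjusted p under 0.05 against NC (18.1%) and a smallest adjusted p of 0.113. The study, which used DESeq2 at the same thresholds, did report differing genes in Tg3 against NC. DESeq2 was not run here against NC or WT, so 0 calls from edgeR do not show that Tg3 had no effect. The median absolute log2 fold change against NC was 0.12 in Tg2 and 0.08 in Tg3. These comparisons share the NC or the WT libraries, and a call in Tg2 with none in Tg3 is not a difference between them. The difference itself is the comparison of Tg2 with Tg3, in which 0 genes were called.

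The 12 genes with a symbol, libraries that did not overlap and the smallest p-values in each direction are described next. They are below the threshold, each has an adjusted p of 0.822 from edgeR, and the exact permutation test of each is at p = 0.1, the smallest two-sided value that 3 against 3 libraries allow. That value follows from picking genes whose libraries did not overlap. Among the genes higher in Tg2 the smallest unadjusted p belonged to PLOD1 (ENSSSCG00000003433), a lysyl hydroxylase that modifies collagen. Its level in normalized CPM was 143, 139 and 133 in Tg2 replicates 1 to 3 and 117, 123 and 112 in Tg3 replicates 1 to 3, a log2 fold change of 0.23 (standard error 0.05, 95% interval 0.14 to 0.33). SLC2A5 (ENSSSCG00000039651), the fructose transporter GLUT5, was at 19.1, 17.9 and 14.1 CPM in Tg2 and 10.97, 13.5 and 10.5 CPM in Tg3, a log2 fold change of 0.55 (standard error 0.14, 95% interval 0.25 to 0.85). In both genes Tg2 replicate 3 was the lowest of the Tg2 libraries and still above every Tg3 library. DNPEP (ENSSSCG00000016220), an aspartyl aminopeptidase, was at 59.3, 60.3 and 52.97 CPM in Tg2 and 45.2, 50.4 and 47.2 CPM in Tg3, a log2 fold change of 0.27 (standard error 0.06). MYL4, a myosin light chain, was at 4.93, 4.91 and 4.14 CPM in Tg2 and 3.22, 3.13 and 3.48 CPM in Tg3, a log2 fold change of 0.51 (standard error 0.12, 95% interval 0.24 to 0.77). ZNF385C, a zinc finger gene, was at 12.7, 12.2 and 13.4 CPM in Tg2 and 9.52, 9.35 and 9.76 CPM in Tg3, a log2 fold change of 0.42 (standard error 0.10).

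The other genes of this direction had smaller estimates. They were CTSC, the lysosomal protease cathepsin C (log2 fold change 0.15), MRPS18A, a protein of the mitochondrial ribosome (0.22), UNC5CL (0.17), TEX264, a receptor for autophagy of the endoplasmic reticulum (0.17), SUPT5H, an elongation factor of RNA polymerase II (0.12), BSCL2, the lipid droplet protein seipin (0.15), and ADM, described with MYC. SUPT5H was the most uniform of them, at 212, 211 and 211 CPM in Tg2 and 194, 197 and 191 CPM in Tg3. All 12 kept an unadjusted p under 0.05 when any library of Tg2 or Tg3 was left out, the largest being 0.0161 for BSCL2. Since the genes were picked by their p-values in these same libraries, this is not independent support.

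Among the genes lower in Tg2, H2AZ2 (ENSSSCG00000016738), a histone variant of the H2A.Z type, had the smallest p-value. It was at 157, 152 and 157 CPM in Tg2 and 173, 175 and 175 CPM in Tg3, a log2 fold change of -0.17 (standard error 0.03, 95% interval -0.24 to -0.09). Its protein is nearly identical to that of H2AZ1, and reads shared between their transcripts would make the value uncertain. CDK2AP1 (ENSSSCG00000009775), an inhibitor of the kinase CDK2, was at 25.9, 27.5 and 28.8 CPM in Tg2 and 32.2, 35.3 and 36.1 CPM in Tg3, a log2 fold change of -0.33 (standard error 0.08, 95% interval -0.50 to -0.17). NRTN (ENSSSCG00000033413), the RET ligand neurturin, had the largest estimate of the group, -0.78 (standard error 0.19, 95% interval -1.18 to -0.39), at a low level of 1.75, 2.34 and 2.03 CPM in Tg2 and 3.27, 3.33 and 3.90 CPM in Tg3. The WT libraries held NRTN at 2.17 ± 0.375 CPM (SD, n = 3) and the NC libraries at 3.96 ± 0.853 CPM (SD, n = 3), so Tg2 lay near WT and Tg3 near NC for this gene. PPP1R14B, an inhibitor of protein phosphatase 1, was at 58.9, 58.1 and 58.4 CPM in Tg2 and 65.5, 69.1 and 64.5 CPM in Tg3 (log2 fold change -0.18, standard error 0.04). MTHFD1L, a mitochondrial enzyme of folate metabolism, was at 38.9, 40.3 and 41.8 CPM in Tg2 and 45.6, 47.0 and 47.0 CPM in Tg3 (log2 fold change -0.21, standard error 0.05).

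The remaining 7 genes lower in Tg2 were RNF5, UBE2M, MAN2A1, B3GALNT1, STX2, CD109 and CMSS1. RNF5, a ubiquitin ligase of the endoplasmic reticulum, had a log2 fold change of -0.21, UBE2M, an enzyme that conjugates NEDD8, -0.16, the Golgi mannosidase MAN2A1 -0.20, the glycosyltransferase B3GALNT1 -0.34, the syntaxin STX2 -0.26, the surface protein CD109 -0.16 and CMSS1 -0.37. All 12 of this direction also kept an unadjusted p under 0.05 without any library of Tg2 or Tg3, the largest being 0.0186 for CD109. They too were picked by their p-values in these libraries. No shared list accounts for more than a few of the 24 genes, and PLOD1 and ADM are the 2 that also belong to a list described below.

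**Figure D3:**
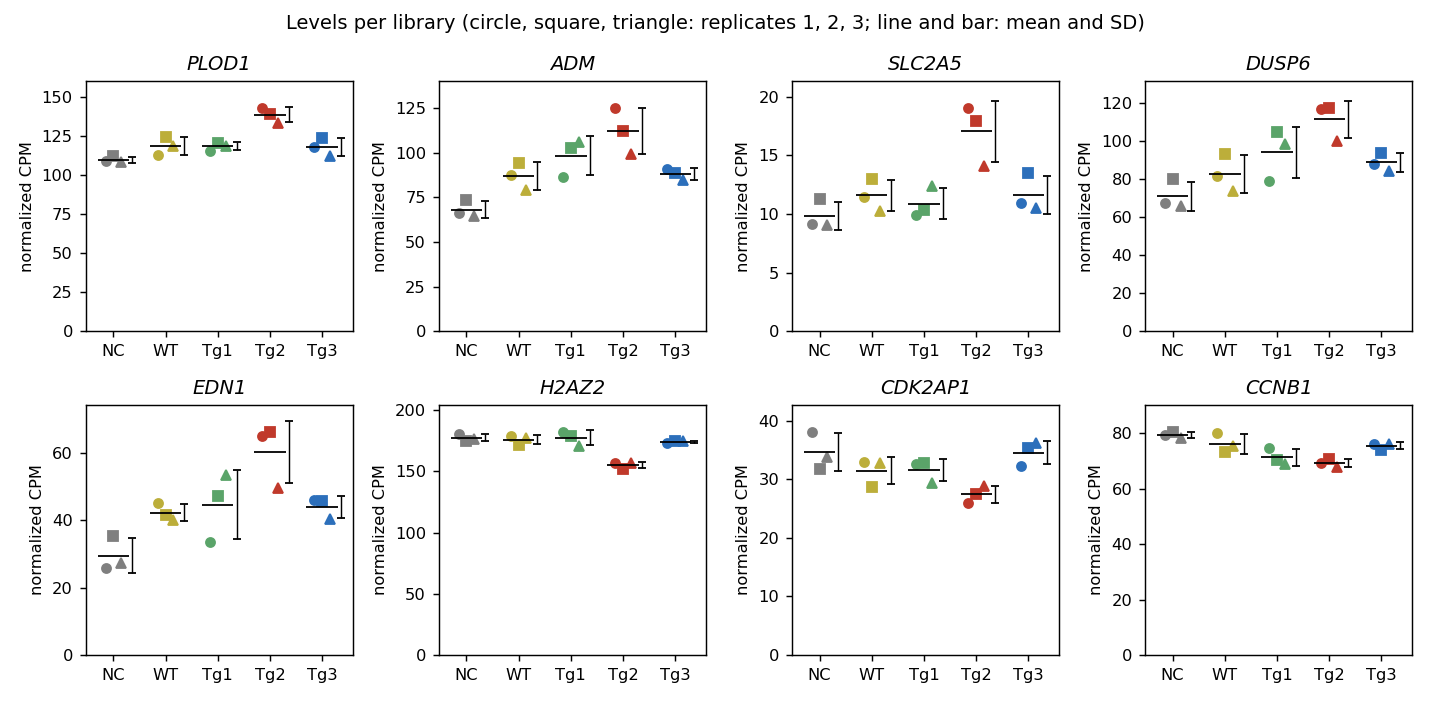
Normalized CPM (y axes, from 0) of 8 genes in each library of the 5 groups (x axes), with the mean and SD of each group. PLOD1, ADM, SLC2A5, DUSP6 and EDN1 lie higher in all Tg2 than in all Tg3 libraries, and H2AZ2, CDK2AP1 and CCNB1 lie lower, with Tg2 replicate 3 nearest to Tg3 in PLOD1, ADM, SLC2A5, DUSP6, EDN1 and CDK2AP1.

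MYC, ADM and IER3, a transcription factor of proliferation, the vasodilator peptide adrenomedullin and an early response gene of NF-kappa B, are the genes the study followed in all PKD2 plasmids. All 3 were higher in every Tg2 library than in every Tg3 library, as were 5.46% of all genes. MYC (ENSSSCG00000005965) was at 318, 341 and 311 CPM in Tg2 and 293, 281 and 274 CPM in Tg3, a log2 fold change of 0.19 (standard error 0.07, 95% interval 0.05 to 0.34). ADM (ENSSSCG00000013408) was at 125, 112 and 99.5 CPM in Tg2 and 90.7, 88.8 and 84.5 CPM in Tg3, a log2 fold change of 0.35 (standard error 0.09, 95% interval 0.15 to 0.55). IER3 (ENSSSCG00000027607) was at 272, 321 and 281 CPM in Tg2 and 259, 229.6 and 249 CPM in Tg3, a log2 fold change of 0.24 (standard error 0.09, 95% interval 0.05 to 0.44). The adjusted p from edgeR was 0.822 for each. Against NC, Tg2 had log2 fold changes of 0.52, 0.72 and 0.64 in MYC, ADM and IER3 (adjusted p = 0.00865 from edgeR for each), and Tg3 had 0.32, 0.37 and 0.40 (adjusted p = 0.143, 0.144 and 0.144). The study, with DESeq2 and then qRT-PCR, reported all 3 as raised with every PKD2 plasmid, Tg3 included. Tg3 lay at the level of WT, with log2 fold changes of 0.02, 0.02 and -0.09 against it. Without Tg2 replicate 2 the unadjusted p of MYC was 0.0584 and that of IER3 was 0.102, whereas ADM kept a value under 0.05 without any of the 6.

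Immediate-early and ERK target genes, which are transcribed within minutes of growth factor signalling through MAPK, were mostly higher in Tg2. Of 27 tested members 25 were higher and 2 lower, and 8 were at an unadjusted p under 0.05, all higher, beside 2.98% of all genes. Their median log2 fold change was 0.16, beside 0.00 over all genes. DUSP6, a phosphatase that switches off ERK and is itself induced by it, was at 117, 118 and 99.96 CPM in Tg2 and 88.2, 94.0 and 84.4 CPM in Tg3, a log2 fold change of 0.33 (standard error 0.11). FOSL1, the AP-1 subunit FRA1, was at 102, 109 and 102 CPM in Tg2 and 91.2, 80.7 and 82.3 CPM in Tg3, a log2 fold change of 0.30 (standard error 0.12). JUNB, ZFP36, IER2 and DUSP5 had estimates of 0.20, 0.21, 0.21 and 0.27, whereas FOS (0.13), EGR1 (0.09) and ATF3 (0.11) were each at an unadjusted p over 0.05. The median of the list against NC was 0.39 in Tg2 and 0.24 in Tg3, and against WT it was -0.00 and -0.20. The number of members at an unadjusted p under 0.05 rested on single libraries, being 1 without Tg2 replicate 2, 2 without Tg3 replicate 2, and 5 without Tg3 replicate 3. The median of the list was 0.10 without Tg2 replicate 2 and 0.08 without Tg3 replicate 2.

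Hypoxia and glycolysis genes, many of them targets of the hypoxia-inducible factor, were the list with the largest share of members at an unadjusted p under 0.05. All 25 tested members were higher in Tg2, beside 50.3% of all genes. Of them 10 were at an unadjusted p under 0.05 beside 2.98% of all genes, and the median was 0.12. PLOD1 and ADM, given above, led the list. PFKFB3, which makes the activator of glycolytic phosphofructokinase, was at 171, 162 and 148 CPM in Tg2 and 131, 139 and 124 CPM in Tg3, a log2 fold change of 0.29 (standard error 0.08). ENO1, the glycolytic enolase, was at 1639, 1582 and 1526 CPM in Tg2 and 1415, 1467 and 1355 CPM in Tg3, a log2 fold change of 0.16. BNIP3, a mitophagy receptor, had an estimate of 0.25 and the stress gene NDRG1 of 0.16, and HIF1A itself had 0.03. For 23 of the 25 members the 95% interval lay within 0.5 of 0. The list median was 0.08 to 0.13 when each library was left out, with at least 24 of 25 members higher, and the number at an unadjusted p under 0.05 was 17 without Tg2 replicate 3 and 7 to 12 without each of the other libraries. The medians per library, relative to the mean of all 15 libraries, did not overlap. They were 0.19, 0.11 and 0.03 in Tg2 and -0.03, 0.02 and -0.04 in Tg3. WT ranged from -0.07 to 0.08, which held Tg2 replicate 3 and all Tg3 libraries. Members of this and every other list share the same libraries, so 25 in the same direction are not 25 observations.

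Interferon response genes showed the widest gap and the widest spread. All 39 tested members of the type I interferon list, which is induced by viral and cytosolic nucleic acid, were higher in Tg2 with a median log2 fold change of 0.23, and 0 of them were at an unadjusted p under 0.05. The list median per library was 0.56, 0.40 and 0.10 in Tg2 and 0.12, 0.35 and 0.00 in Tg3, so the groups overlapped. CXCL10, a chemokine that attracts T cells, was at 970.3, 793 and 463 CPM in Tg2 and 459, 649.8 and 428 CPM in Tg3, a log2 fold change of 0.53. IFI6, an antiviral protein of the endoplasmic reticulum, had the 95% interval -0.12 to 0.76. Tg2 replicate 1 and Tg3 replicate 2 carried the highest levels of their groups, and since the members share these libraries, 39 members in the same direction are not 39 observations. Without Tg2 replicate 3, 2 members were at an unadjusted p under 0.05, beside 1333 of all 11553 genes in that fit. The median was 0.12 without Tg2 replicate 1, 0.15 without Tg3 replicate 3, and 0.33 without Tg2 replicate 3 or Tg3 replicate 2. Against NC it was 0.60 in Tg2 and 0.41 in Tg3. The half-width of the 95% interval had a median of 0.45 over the list, and for 10 of 39 members the interval lay within 0.5.

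Genes of antigen presentation and NF-kappa B had the same order of libraries within each mutant as the interferon list. The 12 tested members of the immunoproteasome and antigen presentation list, among them TAP1 (0.22), PSMB8 (0.17) and CD74 (0.14), were all higher in Tg2 with a median of 0.14, and 0 were at an unadjusted p under 0.05. This median was 0.08 without Tg2 replicate 1, 0.09 without Tg3 replicate 3 and 0.23 without Tg2 replicate 3. Of 27 NF-kappa B and TNF target genes 25 were higher in Tg2, 4 at an unadjusted p under 0.05 beside 2.98% of all genes, with a median of 0.18. These 4 were IER3, ZC3H12A (0.18), the NF-kappa B subunit RELB (0.13) and LCN2 (0.23), the secreted lipocalin known from injured tubules. RELB was at 60.5, 60.7 and 58.0 CPM in Tg2 and 53.1, 57.6 and 52.9 CPM in Tg3. The cytokines IL6 (0.35), TNF (0.37) and CCL2 (0.39) had larger estimates and overlapping libraries. The 4 became 11 without Tg2 replicate 3, 2 without Tg2 replicate 1, Tg3 replicate 1 or Tg3 replicate 3, 1 without Tg3 replicate 2 and 0 without Tg2 replicate 2.

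**Figure D4:**
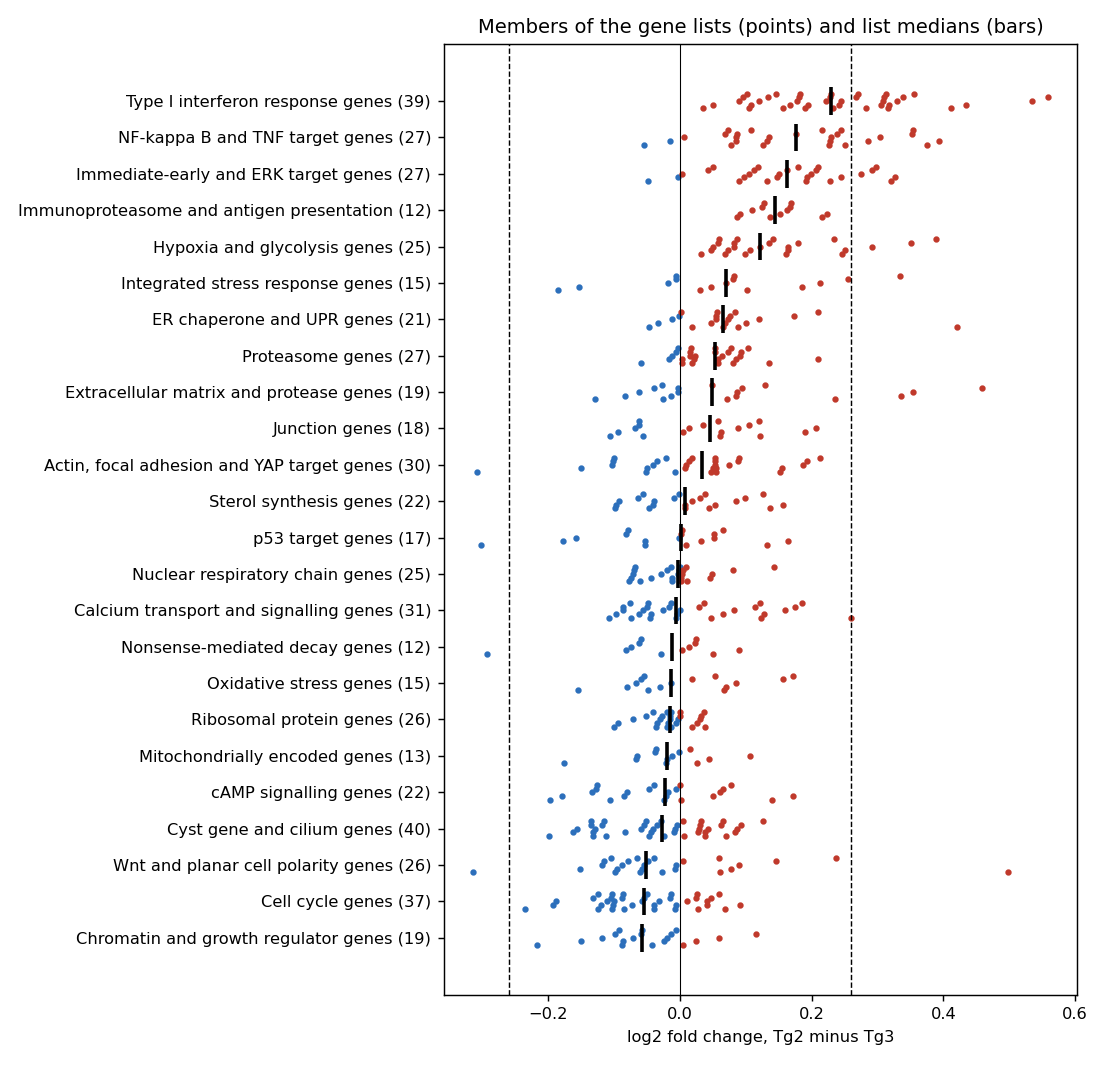
Log2 fold change of Tg2 minus Tg3 (x axis) of the tested members of 24 gene lists (y axis, number of members in brackets), red where higher and blue where lower in Tg2, with the list median as a bar. Interferon, NF-kappa B, immediate-early, immunoproteasome and hypoxia lists lie to the right of 0 with medians of 0.12 to 0.23, and the cell cycle and chromatin lists lie to the left with medians of -0.05 and -0.06.

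Cell cycle genes were mostly lower in Tg2 than in Tg3, by small amounts. Of 37 tested members 27 were lower and 10 higher, 8 of the lower were at an unadjusted p under 0.05 beside 2.85% of all genes, and the median was -0.05. CCNB1, the mitotic cyclin B1, was at 69.3, 70.9 and 67.7 CPM in Tg2 and 76.3, 74.1 and 76.2 CPM in Tg3, a log2 fold change of -0.12 (standard error 0.04, 95% interval -0.21 to -0.03). CCNB2, its close relative, was at 21.1, 22.3 and 20.3 CPM in Tg2 and 23.2, 23.7 and 25.5 CPM in Tg3, a log2 fold change of -0.19. TOP2A, the topoisomerase of dividing cells (-0.12), the inhibitor CDKN2C (-0.10), the kinase CDK4 (-0.10), the transcription factor E2F1 (-0.23), the spindle motor KIF11 (-0.13) and the helicase subunit MCM6 (-0.09) made up the 8, and in all of them the libraries did not overlap, as in 6.05% of all genes with Tg2 below Tg3. The 8 were picked by their p-values in these same libraries, which favours libraries that do not overlap, so this is not independent support. The other replication helicase genes MCM2 to MCM5 and MCM7 lay between 0.01 and 0.09. For all 37 members the 95% interval lay within 0.5. The per-library medians were 0.02, -0.00 and -0.01 in Tg2 and 0.05, 0.05 and 0.08 in Tg3, and the 8 became 3 without Tg2 replicate 3 or Tg3 replicate 3, 4 without Tg2 replicate 2 and 5 without Tg3 replicate 1 or 2. The median over the members was -0.03 without Tg3 replicate 3. Against NC the list median was -0.03 in Tg2 and 0.03 in Tg3, and against WT 0.01 and 0.04. All Tg3 libraries lay above the NC range of 0.003 to 0.037. Tg2 replicate 1 lay within that range and the other Tg2 libraries below it. Single genes could differ from this, as CCNB1 had -0.20 in Tg2 and -0.07 in Tg3 against NC.

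Genes tied to polycystin function differed little. In the cAMP list, which holds the adenylyl cyclases, phosphodiesterases and protein kinase A subunits that control fluid secretion, 14 of 22 members were lower and 8 higher in Tg2, with a median of -0.02, and 4 were at an unadjusted p under 0.05, all lower, beside 2.85% of all genes. PRKAR2A, a regulatory subunit of protein kinase A, was at 64.6, 67.7 and 70.1 CPM in Tg2 and 74.1, 72.7 and 74.3 CPM in Tg3, a log2 fold change of -0.13 (standard error 0.04). PRKACA, a catalytic subunit of the same kinase, was at 64.8, 63.7 and 66.3 CPM in Tg2 and 68.7, 75.7 and 69.2 CPM in Tg3, a log2 fold change of -0.13 (standard error 0.05). ADCY7, an adenylyl cyclase (-0.18), and PPP1R1A, a phosphatase inhibitor switched on by protein kinase A (-0.13), were the others, and the libraries of all 4 did not overlap, as in 6.05% of all genes with Tg2 below Tg3. These 4 too were picked by their p-values, so libraries that do not overlap are not independent support. AVPR2, the vasopressin receptor, had an estimate of -0.01. The 4 became 1 without Tg2 replicate 1 and 2 without Tg2 replicate 2, Tg3 replicate 2 or Tg3 replicate 3.

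Of 31 calcium transport and signalling genes 13 were higher and 18 lower, with a median of -0.01. Those at an unadjusted p under 0.05 were ORAI2, a plasma membrane calcium channel (0.26), and MCU, the mitochondrial calcium uniporter (0.12). They made up 6.45% of the list, beside 5.83% of all genes. ORAI2 was at 61.6, 52.7 and 45.2 CPM in Tg2 and 44.4, 46.0 and 42.8 CPM in Tg3, so its libraries overlapped. The 2 higher members became 0 without Tg2 replicate 1, Tg3 replicate 1 or Tg3 replicate 3, 1 without Tg2 replicate 2, and 4 without Tg2 replicate 3, where 3 lower members joined them. The store sensor STIM1 had an estimate of 0.19 and the inositol trisphosphate receptors ITPR2 and ITPR3 had -0.07 and -0.09. Among 40 cyst and cilium genes 16 were higher and 24 lower, 0 were at an unadjusted p under 0.05, and for 39 the 95% interval lay within 0.5. The median was -0.03, 0.01 without Tg2 replicate 1 and 0.00 without Tg3 replicate 3. Without Tg2 replicate 3 there were 4 lower and 2 higher members at an unadjusted p under 0.05. In that fit 1333 of all 11553 genes stood at that level. PKHD1, the gene of recessive polycystic kidney disease, was at 137, 132 and 162 CPM in Tg2 and 162, 154 and 157 CPM in Tg3, and its estimate of -0.13 did not separate the groups. The transport gene IFT172 had 0.13, the transition zone genes CEP290 and RPGRIP1L had -0.14 and -0.20, and IFT88 had -0.06. Wnt and planar cell polarity genes were lower in 18 of 26 with a median of -0.05, and APC, the scaffold of the beta-catenin destruction complex, was the member at an unadjusted p under 0.05 (-0.12). At that level stood 3.85% of the list, beside 5.83% of all genes. The number of such lower members was 0 without Tg2 replicate 1, Tg3 replicate 1 or Tg3 replicate 3, 2 without Tg3 replicate 2 and 3 without Tg2 replicate 3. The median was -0.01 without Tg2 replicate 1 or Tg3 replicate 3, -0.02 without Tg2 replicate 2 and -0.10 without Tg2 replicate 3. The Wnt co-receptor LRP6 had -0.10 and the target AXIN2 -0.31.

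**Figure D5:**
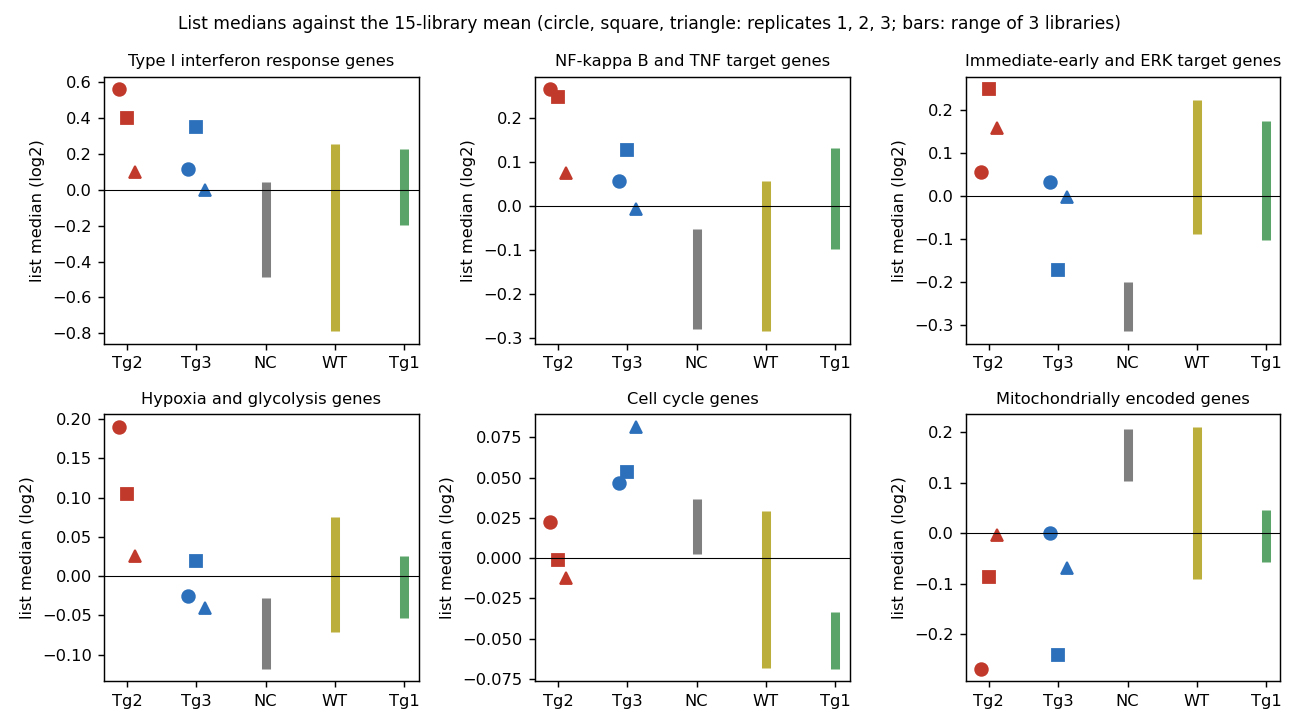
Median over the members of 6 gene lists of the log2 level relative to the mean of all 15 libraries (y axes, each with its own scale), for each Tg2 and Tg3 library as a point and for NC, WT and Tg1 as the range of 3 libraries (x axes). Tg2 and Tg3 do not overlap in the immediate-early, hypoxia and cell cycle lists and overlap in the interferon, NF-kappa B and mitochondrially encoded lists.

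Among stress genes, 17 of 21 endoplasmic reticulum chaperone and unfolded protein response genes were higher in Tg2, with a median of 0.07, and 3 were at an unadjusted p under 0.05, all higher, beside 2.98% of all genes. They were the chaperones HSP90B1 (0.12), PDIA4 (0.09) and HSPA5 (0.10). HSP90B1 was at 459, 450.4 and 419 CPM in Tg2 and 394, 418 and 410.3 CPM in Tg3, so Tg2 replicate 3 and Tg3 replicate 2 nearly met. The 3 became 7 without Tg2 replicate 3, 4 without Tg3 replicate 2, 2 without Tg3 replicate 3, 1 without Tg2 replicate 2 and 0 without Tg2 replicate 1 or Tg3 replicate 1. The median was 0.03 without Tg2 replicate 1, 0.04 without Tg3 replicate 3 and 0.10 without Tg2 replicate 3. Of 15 integrated stress response genes 10 were higher (median 0.07) and 5 lower, with PPP1R15A, the phosphatase subunit that restores translation, at 176, 185 and 168 CPM in Tg2 and 155, 155 and 147 CPM in Tg3 (0.21, standard error 0.08). The median of this list was 0.00 without Tg2 replicate 1, 0.02 without Tg3 replicate 3 and 0.04 without Tg3 replicate 1. The p53 targets were split 9 to 8 (median 0.00) and the oxidative stress genes 7 to 8 (median -0.01). In either list 0 members were at an unadjusted p under 0.05. With a library left out this held, but for 2 lower p53 targets without Tg2 replicate 3. In that fit 1333 of all 11553 genes stood at that level.

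In the matrix and protease list 10 of 19 members were higher, with a median of 0.05, and its 4 members at an unadjusted p under 0.05 were all higher in Tg2, beside 2.98% of all genes. EDN1 (ENSSSCG00000035598), the vasoconstrictor endothelin-1, was at 64.9, 66.4 and 49.7 CPM in Tg2 and 45.9, 45.6 and 40.3 CPM in Tg3, a log2 fold change of 0.46 (standard error 0.16, 95% interval 0.13 to 0.79). PLAU, the urokinase protease, was at 74.1, 76.1 and 69.8 CPM in Tg2 and 64.4, 61.1 and 61.2 CPM in Tg3, a log2 fold change of 0.24. The protease inhibitors TIMP1 (0.34) and TIMP3 (0.09) were the others, and TIMP1, at 192 CPM in Tg2 replicate 3 and 205 CPM in Tg3 replicate 2, overlapped. The 4 became 1 without Tg2 replicate 1, Tg2 replicate 2 or Tg3 replicate 3, and the median was 0.03 without Tg2 replicate 2 and 0.02 without Tg3 replicate 3. The actin, focal adhesion and YAP list was split, with 19 of 30 higher (median 0.03). Its focal adhesion protein ZYX (0.15) and YAP target ANKRD1 (0.21) were higher, and the actin regulator MICAL2 (-0.15) and the LIM protein LPP (-0.31) lower, each at an unadjusted p under 0.05. At that level stood 13.3% of the list, beside 5.83% of all genes. Without Tg2 replicate 3 this list held 3 higher and 4 lower members at that level, 1 member without Tg2 replicate 1 or Tg3 replicate 1, and 0 without Tg2 replicate 2 or Tg3 replicate 3. Of 18 junction genes 12 were higher (median 0.05), and JUP, the desmosome protein plakoglobin, was at an unadjusted p under 0.05 (0.19). This was 5.56% of the list, beside 5.83% of all genes at that level. Junction members at that level numbered 2 higher and 2 lower without Tg2 replicate 3, 2 higher without Tg3 replicate 2 and 0 without any other library, and the median was 0.03 without Tg2 replicate 1 or Tg3 replicate 1.

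The list median of the mitochondrially encoded genes lay lower in all 6 libraries than in NC. The median log2 fold change was -0.28 in Tg2 and -0.26 in Tg3 against NC, and -0.02 between Tg2 and Tg3. Of 13 tested members 4 were higher and 9 lower in Tg2. Relative to the mean of all 15 libraries the per-library medians were -0.27, -0.09 and -0.00 in Tg2 and -0.00, -0.24 and -0.07 in Tg3. The range in NC was 0.10 to 0.21. All Tg1 libraries also lay below NC, at -0.06 to 0.05, and WT ranged from -0.09 to 0.21. The direction between Tg2 and Tg3 depended on the libraries, with 11 of 13 members higher in Tg2 without Tg3 replicate 1, 10 without Tg2 replicate 1 and 7 without Tg3 replicate 3, and 2 of 13 without Tg2 replicate 3 or Tg3 replicate 2. COX1, a subunit of cytochrome oxidase, stood apart at 17042, 17530.2 and 17288 CPM in Tg2 and 16508, 15813 and 15862 CPM in Tg3, a log2 fold change of 0.11 (standard error 0.03). Against NC, COX1 had a log2 fold change of 0.00 in Tg2 and -0.10 in Tg3, so it was not lower in Tg2. The nuclear genes of the respiratory chain had a median of -0.00, the sterol synthesis genes of 0.01, the nonsense-mediated decay genes of -0.01 and the ribosomal protein genes of -0.02. Nonsense-mediated decay removes transcripts with early stop codons, and UPF3A, a factor of this pathway, was at 2.73, 3.60 and 2.84 CPM in Tg2 and 3.63, 4.14 and 3.48 CPM in Tg3 (-0.29, 95% interval -0.60 to 0.02). Proteasome genes were higher in 22 of 27 with a median of 0.05, and 0 were at an unadjusted p under 0.05. Chromatin regulators were lower in 15 of 19 with a median of -0.06, and CHD9, a chromatin remodeller, was at an unadjusted p under 0.05 (-0.22). This was 5.26% of the list, beside 5.83% of all genes at that level. Without Tg2 replicate 3, 6 chromatin members were lower and 1 higher at that level, and 2 proteasome members were higher. In that fit 1333 of all 11553 genes stood at that level. The chromatin median was -0.02 with 11 of 19 lower without Tg2 replicate 2, and -0.04 without Tg3 replicate 3. The proteasome median was 0.01 without Tg2 replicate 2, 0.03 without Tg3 replicate 1 or Tg3 replicate 3 and 0.04 without Tg2 replicate 1.

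The spread between wells moved with several of these lists. The leading axis of the deviations of the 15 libraries from their group means held 46.2% of that variance. Tg2 replicates 1 to 3 scored -8.8, -3.3 and 12.2 on it and Tg3 replicates 1 to 3 scored 1.6, -8.2 and 6.6. The order of the Tg2 libraries on this axis was the order of their interferon, immunoproteasome and hypoxia medians from high to low, and Tg3 replicate 2, lowest on it among the Tg3 libraries, was the highest of them in all 3 lists. What sets this axis was not tested. Among markers of other cells, CD68, a lysosomal marker of macrophages, was at 3.14, 3.27 and 2.66 CPM in Tg2 and 2.04, 2.43 and 1.63 CPM in Tg3, a log2 fold change of 0.58 (adjusted p = 0.822 from edgeR), while the 7 immune markers summed to 53.1 to 59.5 CPM in Tg2 and 54.0 to 56.7 CPM in Tg3. The epithelial keratin KRT7 had a log2 fold change of 0.12 (adjusted p = 0.822 from edgeR).

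Genes that Tg1 shifted against NC, a comparison that shares no library with Tg2 and Tg3, differed between Tg2 and Tg3 by small amounts. Of the 21 genes called higher in Tg1 than in NC (0.182%), 20 were higher in Tg2 than in Tg3, with a median log2 fold change of 0.12, 11 of them at an unadjusted p under 0.05 beside 2.98% of all genes. Of the 117 genes called lower in Tg1 (1.01%), 106 were lower in Tg2 than in Tg3, with a median of -0.09 and 16 at an unadjusted p under 0.05 beside 2.85% of all genes. None of the 138 (1.19%) passed the adjusted threshold between Tg2 and Tg3. Members of each set share the same Tg2 and Tg3 libraries, so genes in the same direction are not separate observations. MYC, ADM, IER3, ZC3H12A and PPP1R15A, described above, are among the 21. How these counts change without a library was not tested.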

How the data were processed

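The deposited table holds whole-number counts per Ensembl gene in 15 libraries, which the authors made by quantifying Ensembl pig cDNA with Salmon, and which are not normalized. How transcripts were brought to genes, and whether strand was used, are not given in the sources used here. Counting transcripts can split reads between similar or overlapping genes, and intervals cover the spread between wells. Genes with a mean of at least 2 CPM were tested with edgeR 4.0.16 in R 4.3.3 (TMM, glmQLFit and glmQLFTest, group means of all 15 libraries, Benjamini-Hochberg adjustment). Standard errors were taken from the estimate and its F statistic. Levels are TMM-normalized CPM, which are not divided by length and so were compared within genes only.

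Symbols came from the supplementary tables of the study (1437 identifiers) and otherwise from a table of gene names, giving 10185 of 11553 tested genes a symbol. The genes named are the 12 in each direction with the smallest p-values, a symbol and libraries that did not overlap, MYC, ADM and IER3, and up to 4 members of each of 24 lists with the smallest p-values. Other list members and the marker genes were named after their values were seen. The members and lists were chosen with earlier results of these data known.

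The alternatives were DESeq2 1.42.0, its size factors, no filter and filterByExpr, only 6 libraries, no fold change threshold, glmTreat, a replicate block, and each library left out. A surrogate variable (sva 3.50.0) was chosen as an alternative after seeing the data. The edgeR fit, its test and the calling rule were tested on simulated counts, and the alternatives were not.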

Additional observations from a re-analysis of the deposited data

Results flagged for a closer look

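In 3 of the genes named, all Tg2 libraries lay on 1 side of all NC libraries and all Tg3 libraries on the opposite side. MYL4 had a log2 fold change of 0.51 between Tg2 and Tg3, with NC at 3.75, 3.78 and 3.74 CPM between the Tg2 libraries (4.14 to 4.93 CPM) and the Tg3 libraries (3.13 to 3.48 CPM). PPP1R14B had -0.18, with NC at 61.9, 59.7 and 63.5 CPM between Tg2 (58.1 to 58.9 CPM) and Tg3 (64.5 to 69.1 CPM). MTHFD1L had -0.21, with NC at 45.4, 43.5 and 45.3 CPM between Tg2 (38.9 to 41.8 CPM) and Tg3 (45.6 to 47.0 CPM). The tested difference between the mutants had an adjusted p of 0.822 from edgeR in each gene. MYL4 was the least abundant in normalized CPM, and its 95% interval of 0.24 to 0.77 the widest of the 3.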

How the results depend on the processing

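DESeq2, its size factors in edgeR, both other filters, the fit of only 6 libraries, no fold change threshold, glmTreat, the replicate block and each left-out library all called 0 genes. Genes at an unadjusted p under 0.05 numbered 421 to 1333 over the left-out libraries and 545 to 930 otherwise. The replicate block gave 930 such genes and a smallest adjusted p of 0.321. Deviations of same-numbered libraries correlated at -0.13, 0.10 and 0.35, and Tg2 replicate 1 correlated best with Tg3 replicate 2 (0.36). These correlations cover Tg2 and Tg3 alone and cannot decide whether the numbers pair the wells. On the leading axis of the deviations from group means, replicate 3 scored highest in Tg2, Tg3, WT (13.6) and NC (8.2). In Tg1 it scored lowest (-5.3). Whether wells of the same number belong together was not tested. With 1 surrogate variable, added after the data were seen, edgeR called 4 genes, 3 higher and 1 lower in Tg2, with 1040 at an unadjusted p under 0.05. They were ADM (log2 fold change 0.27, adjusted p = 0.0116), SOX9 (0.31), SLC2A5 (0.43) and ENSSSCG00000015337 (-0.29), the last 3 at an adjusted p of 0.0457 from edgeR. The libraries of SOX9 and ENSSSCG00000015337 overlapped, and without the variable all 4 had an adjusted p of 0.822 from edgeR. The variable was estimated from these same counts and was not even between the plasmids. It was -0.44, -0.34 and -0.02 in Tg2, -0.08, -0.27 and 0.01 in Tg3, and 0.21, -0.01 and 0.35 in NC. The cause of these calls was not tested. Over all alternatives the 117 named genes kept their direction, 2 of 1521 values newly passing the threshold. Most of these genes were picked for small p-values in the same libraries, which favours a kept direction. Of 312 list medians 6 moved by more than the spread between libraries. They were the integrated stress response (0.00) and nonsense-mediated decay (-0.05) lists without Tg2 replicate 1, the proteasome list without Tg2 replicate 2 (0.01) and with the surrogate variable (0.01), and the endoplasmic reticulum list without Tg2 replicate 3 (0.10) and with the surrogate variable (0.03). Depth and 3 libraries a group limit the low genes, since of 981 genes under 5 CPM 1 had a 95% interval within 0.26.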
